A study of Mus musculus with 111 samples.

Results

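Some RNAs in the mouse gene annotation are named after another gene with the ending os, for opposite strand: Grin1os lies across Grin1 and is read from the other strand. The 127 such RNAs described here were selected by name and level. A row of the count tables was taken where its name was another row's name (the host) followed by os, or by os and a digit, and where its mean raw count over the virus libraries was 5 or more. This gave 127 of 293 rows so named, with 118 host rows among them, out of 54087 gene rows in all. As the level was the criterion, the mean counts below describe the members and are not tested. The members nearest to the threshold were Tbx3os1 at 5.05, Spag17os at 5.14 and Raxos1 at 5.40 reads, and the nearest rows outside it were Trp73os at 4.59, Tspan2os at 4.37 and Dnah2os at 4.28 reads.

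The libraries came from the tuberomammillary nucleus (TMN), the hypothalamic nucleus whose neurons make histamine, of C57BL/6 mice (C57BL/6J in the study's methods) that had all received an AAV. The vectors expressed GFP only, wild-type histone H3.3 or H3.3Q5A, a mutant H3.3 with alanine in place of the glutamine that carries monoamine marks on the H3 tail. The study took tissue at 6 zeitgeber times (ZT, hours after lights on: 0, 4, 8, 12, 16 and 20) from adult mice of both sexes, weeks after transduction, and dissected it by the GFP fluorescence that all 3 vectors give, so cells without vector were also in it. After 1 repeated library was merged, 110 libraries entered: 32 GFP, 39 H3.3 and 39 H3.3Q5A, with 4 to 8 for each virus at a given ZT (18 groups). The 71 libraries of the GFP and H3.3 vectors are pooled as controls (9 to 14 at each ZT). Gene rows summed to 673306 to 3375352 reads per library, with a median of 1474423. The row of Hdc, the defining gene of histamine neurons, had a median of 3.96 normalized reads and was at 0 in 11 of 110 libraries. Of the other rows listed for these neurons, Slc18a2, the vesicular monoamine transporter, had a median of 85.7. Hrh3 had 15.7, Maob 5.41, Gal 3.81 and Lhx9 0.859. These too are values of rows, under the strand setting given below. The labels give 3 cohorts, and cohort 1 holds 28 GFP, 24 H3.3 and 26 H3.3Q5A libraries. Cohorts 2 and 3 hold too few libraries of each group to give values of their own.

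Opposite-strand RNAs are transcribed across a gene from its complementary DNA strand, often from a promoter within or near that gene, and many are non-coding. Some are known to act on the host gene through its chromatin or transcripts, and for many no function is known. Telling them from the host depends on the strand of each read. Per the study's methods, the libraries were made with a kit that keeps the strand, and reads were counted with HTSeq under its setting yes, which assigns a read to a gene on the same strand as the first read. In kits of this kind the first read usually runs opposite to the RNA. Gene rows took 3.49% to 5.64% of the reads that fell either in a gene row or in no annotated exon. Whether a read in an opposite-strand row came from the RNA of that name or from the transcript on the facing strand cannot be told apart in count tables, so every value below is that of a row.

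The rows lie across exons of their hosts, most often the coding ones. Of the 120 members found in the gene models, 110 shared exon bases with the host on the opposite strand, with a median of 257 shared bases and a range of 34 to 3255. For 84 of these the shared bases included protein-coding bases of the host, with a median of 149.5. The following coding exons of 5 hosts show what such a row faces. Each is the host's coding strand, 5′ to 3′, from GENCODE M21 transcripts of build GRCm38, and capitals mark the bases that lie opposite an exon of the named row, whose own strand is the reverse complement. They were chosen as the coding exon of at most 300 bases with the longest opposite run, for a member of high count (Chn1os3) and 4 members whose day courses are described further on.
Chn1 exon at chr2:73614662-73614767, minus strand, opposite Chn1os3: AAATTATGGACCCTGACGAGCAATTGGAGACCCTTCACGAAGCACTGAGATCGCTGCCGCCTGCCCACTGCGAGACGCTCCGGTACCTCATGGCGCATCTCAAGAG
Bcas1 exon at chr2:170406274-170406509, minus strand, opposite Bcas1os1: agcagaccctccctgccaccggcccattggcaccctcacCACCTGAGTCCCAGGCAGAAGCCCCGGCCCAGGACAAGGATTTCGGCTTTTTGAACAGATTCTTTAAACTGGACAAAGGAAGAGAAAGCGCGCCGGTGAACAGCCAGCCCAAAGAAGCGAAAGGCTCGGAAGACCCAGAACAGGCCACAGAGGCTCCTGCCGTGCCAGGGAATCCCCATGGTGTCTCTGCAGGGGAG
Galnt6 exon at chr15:100703348-100703582, minus strand, opposite Galnt6os: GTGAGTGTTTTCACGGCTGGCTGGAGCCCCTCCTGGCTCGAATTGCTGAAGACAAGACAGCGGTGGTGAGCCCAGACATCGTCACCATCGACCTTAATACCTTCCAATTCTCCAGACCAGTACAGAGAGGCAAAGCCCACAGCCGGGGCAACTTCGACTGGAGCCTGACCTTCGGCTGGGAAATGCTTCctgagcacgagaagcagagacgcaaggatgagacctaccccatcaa
Kcnab3 exon at chr11:69332066-69332140, plus strand, opposite Kcnab3os: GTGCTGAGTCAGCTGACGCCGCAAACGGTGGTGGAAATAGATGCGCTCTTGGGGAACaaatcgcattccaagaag
Frs3 exon at chr17:47701623-47701784, plus strand, opposite Frs3os: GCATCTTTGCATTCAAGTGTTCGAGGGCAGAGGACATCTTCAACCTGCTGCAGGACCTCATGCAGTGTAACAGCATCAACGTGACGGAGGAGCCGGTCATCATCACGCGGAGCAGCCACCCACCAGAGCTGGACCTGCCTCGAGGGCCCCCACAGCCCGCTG
In the Chn1 and Frs3 exons every base was opposite the row (106 and 162 bases). In the Bcas1 exon 197 of 236 bases, in the Galnt6 exon 189 of 235 and in the Kcnab3 exon 57 of 75 were.

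The selected opposite-strand rows held more reads than the genes they are named after. The 127 members took a median of 2.53% of each library's gene reads (1.74% to 3.94%), against 0.475% for their 118 hosts (0.413% to 0.612%). The members' sum was above the hosts' sum in every library, by a median of 5.41 times (2.97 to 8.15 times). The shares of the 3 viruses overlapped: GFP libraries had 2.54% ± 0.280 (SD, n = 32), H3.3 libraries 2.54% ± 0.316 (n = 39) and H3.3Q5A libraries 2.49% ± 0.308 (n = 39). Taken pair by pair, 101 of 127 members (79.5%) had a higher mean count than the host, with a median ratio of 7.43. As the members were selected on their own count, all rows so named stand beside this: 120 of 293 (41.0%) were above the host, with a median ratio of 0.45, and 19 of the 166 rows below the threshold were. Per kb of exon, 109 of the 120 annotated members were above the host, with a median of 46.5 reads per kb against 3.07 for the hosts. In 68 pairs the row was above its host in all 110 libraries, and in 12 pairs in none.

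**Figure D1:**
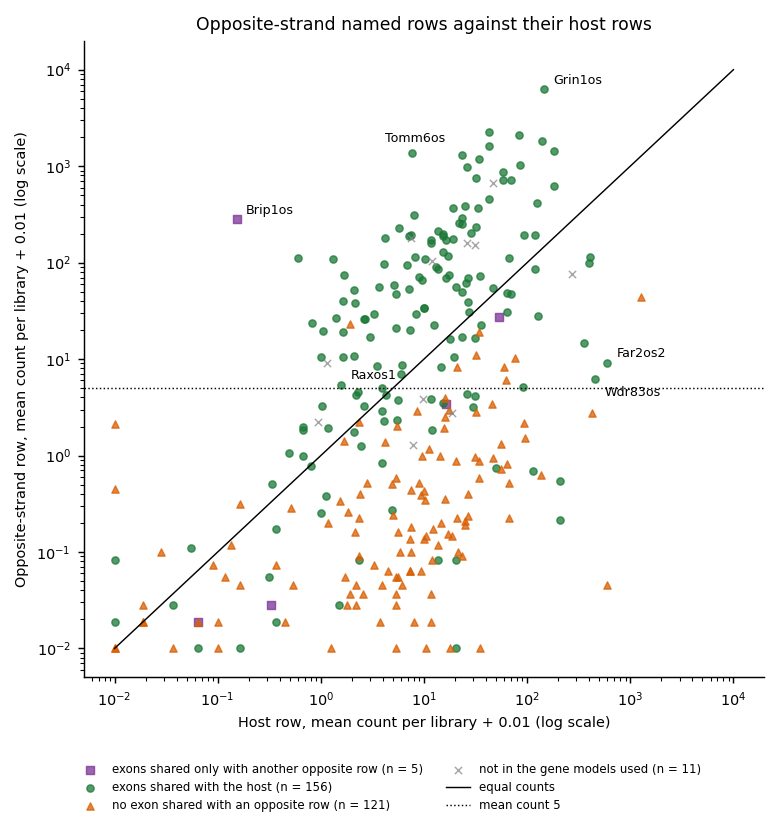
Mean raw count per library of each of the 293 os-named rows (vertical axis) against that of its host row (horizontal axis), both on log scales after adding 0.01; the solid line marks equal counts and the dotted line the mean count of 5 that members had to reach. Rows that share exons with the host (green circles) lie mostly above the line of equal counts. Those without any exon opposite another row in the gene models used (orange triangles) lie mostly below it.

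Sharing of exons went with the level. Over all 293 os-named rows, so without the threshold, the 156 rows that shared exon bases with the host had a median count of 31.0 reads and 106 of them were above the host. The 121 rows with no exon opposite any other row in the gene models used had a median of 0.180 reads, and 6 were above the host. These models held 28418 of the 54087 rows, so exons facing a row outside them are not seen. Among members, the 110 that shared exons had a median of 64.4 reads per kb against 2.95 for their hosts, and 104 were above the host per kb. The 8 members with no opposite exon had 5.45 reads per kb against 7.76, and 4 were above. Among these 8 were Slc7a6os, Rapgef4os3, Fam120aos, Gad1os, Dtnbos, Sap30bpos and Fgf2os. Gad1os, named after the GABA-synthesizing enzyme, had 10.8 reads per kb against 10.1 for Gad1. In 2 further members, Brip1os and Fbxl12os, the exons faced other rows only, and 7 members (Toporsos, Ppp1r3fos, Proscos, Nkx2-2os, Ict1os, Chd3os and Six6os1) were not in the gene models used. By position, the row was above its host in 44 of 51 members inside the host, 30 of 41 across its 5′ end, 14 of 17 across its 3′ end, 5 of 6 that span it and 2 of 5 that do not overlap it. The few rows named with other endings were 3 with ot and 2 with as; of these, Dlx1as had 393 reads against 258 for Dlx1, a homeobox gene of GABA neurons, and Sox2ot had 15.9 against 24.5 for Sox2.

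Grin1os was the most abundant member. It had a mean of 6235 reads per library and Grin1, the obligatory subunit of NMDA-type glutamate receptors, 147 reads. Grin1os is at chr2:25291220-25298925 on the plus strand, wholly inside Grin1 (chr2:25291181-25319187, minus strand), and its 4 exons face 1307 exon bases of Grin1, of which 1184 are coding. Per kb, Grin1os stood at 2157 reads and Grin1 at 15.1, a ratio of 143. In normalized counts, Grin1os had a lowest, median and highest value of 3759, 6074 and 9025 in GFP, 3362, 6300 and 9183 in H3.3 and 2716, 5660 and 9202 in H3.3Q5A. Grin1 had 80.1, 122 and 251 in GFP, 71.3, 127 and 233 in H3.3 and 87.0, 134 and 202 in H3.3Q5A. The lowest Grin1os library was thus above the highest Grin1 library by a wide margin, and the 3 viruses overlapped for both rows.

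The next members in count were Chn1os3 with 2273 reads (host 42.6), Fam219aos with 2128 (host 82.8), Uchl1os with 1815 (host 138), Chn1os1 with 1603 (host 42.6), Bcas1os1 with 1425 (host 183), Tomm6os with 1373 (host 7.66) and St8sia3os with 1313 (host 23.4). Chn1 is a Rac-directed GTPase-activating protein of neurons, Uchl1 a deubiquitinating enzyme abundant in neurons, Bcas1 a protein of myelinating oligodendrocytes, Tomm6 a subunit of the mitochondrial import pore and St8sia3 a sialyltransferase of the brain. Per kb the rows stood above their hosts by 111 times for Chn1os3, 135 for Fam219aos, 9.78 for Uchl1os, 377 for Chn1os1, 23.8 for Bcas1os1, 68.9 for Tomm6os and 218 for St8sia3os. With Grin1os, these 8 rows held a median of 49.6% of all member reads (42.9% to 63.5%).

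For the first of these, Chn1os3, normalized counts were 993, 1955 and 6257 (lowest, median, highest) in GFP, 1472, 2208 and 8229 in H3.3 and 960, 2061 and 9944 in H3.3Q5A. Fam219aos spanned 1275, 1976 and 3316 in GFP, 1055, 2149 and 3182 in H3.3 and 935, 1908 and 3639 in H3.3Q5A. Uchl1os spanned 1194, 1736 and 3077 in GFP, 1037, 1751 and 2613 in H3.3 and 925, 1695 and 2727 in H3.3Q5A. The viruses overlapped throughout, while the highest Chn1os3 values stood far from its medians. Those values came from 3 libraries that also stood apart in Ppp1r1b, a marker of striatal neurons: GFP replicate 3 and H3.3 replicate 1 at ZT12, and H3.3Q5A replicate 3 at ZT20, all of cohort 1. Ppp1r1b was 311 to 621 normalized reads in these 3 and at most 60.3 in the other 107. In 6 of 127 members all 3 libraries were above every other library: Chn1os3, Chn1os1, St8sia3os, Brip1os, Arhgap20os and Sorbs2os. How many of all rows did the same was not counted, so this is not known to be particular to the members. Chn1os3 was 6257 to 9944 in the 3 and 960 to 4157 in the rest, and Chn1os1 5770 to 8926 against 434 to 3120. St8sia3os was 2964 to 4658 against 488 to 1863. The part of striatal tissue in these values was not tested.

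The widest gaps between row and host were set by hosts with almost no reads. Brip1os had 281 reads and Brip1, a DNA repair helicase, 0.144, with Brip1 at 0 in 98 of 110 libraries. Brip1os does not overlap Brip1; its exons face Ints2 and Med13. Ccdc142os had 111 reads against 0.595 for Ccdc142, which was at 0 in 65 libraries, and Tomm6os stood 179 times above Tomm6. Normalized Brip1os spanned 90.0, 281 and 482 in GFP, 36.3, 274 and 584 in H3.3 and 72.1, 292 and 483 in H3.3Q5A, so the viruses overlapped.

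In 26 members the host was the higher row. Far2, a fatty acyl-CoA reductase, had 599 against 9.15 for Far2os2 (ratio 0.0153), and Wdr83 457 against 6.14 for Wdr83os (ratio 0.0134). Zfhx2, a zinc finger homeobox factor of neurons, had 410 against 114, Cebpz 396 against 98.9, Zfp335 354 against 14.6 and Chd3, a chromatin remodeller, 275 against 75.7. Not all members are non-coding. The gene models class 4 members as protein-coding, with mean counts of 6.14 to 98.9 reads, and 1 of these 4 was above its host. Among the 25 of these pairs with gene models, 14 hosts had exons that face a further row (Far2 faces Ergic2, Wdr83 faces Dhps and Zfp335 faces Pcif1), against 21 of 95 where the opposite-strand row was the higher one. Normalized Far2os2 stood between 1.65 and 29.8 and Wdr83os between 0 and 16.5 in all libraries.

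Hosts were also grouped by 2 fixed lists of genes. The 6 members with a host on the list of synapse, channel and secretion genes were the higher row in all 6 pairs, with a median of 797 reads. Besides Grin1os these were Atcayos (1023 reads against 84.4 for Atcay), Pcsk2os2 and Pcsk2os1 (879 and 715 against 57.7 for Pcsk2, a prohormone convertase), and Kcnmb4os2 and Kcnmb4os1 (171 and 161 against 11.6 for Kcnmb4, a potassium channel subunit). The 9 members with a host on the list of developmental transcription factors had a median of 29.5 reads, and 7 were above the host. They were Nkx2-2os (150 against 31.1), Zfhx2os, Zeb2os (86.8 against 120), Six3os1 (38.9 against 26.6), Irx3os (29.5 against 8.32), Sox5os1 (20.9 against 5.36), Six6os1 (9.08 against 1.14), Raxos1 (5.40 against 1.58) and Tbx3os1 (5.05 against 3.86). The other 112 members had a median of 70.3 reads, and 88 were above the host. The lists are not complete. Kcnab3os, Kcnd3os and Gad1os, for example, are counted among the other members, as are Prox1os and Hopxos. These counts describe the lists, not all genes of each kind, and were not tested.

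Rows at Six3 and Rax, homeobox genes of the developing ventral forebrain and eye, varied far more between libraries than Grin1os did. Six3os1 (chr17:85600651-85618398, minus strand, across the 5′ end of Six3) ranged over 1.21, 13.5 and 190 normalized reads in GFP, 0, 40.2 and 208 in H3.3 and 0, 24.8 and 219 in H3.3Q5A. Six3 ranged over 1.21, 17.7 and 54.2 in GFP, 2.32, 29.1 and 82.4 in H3.3 and 1.83, 19.5 and 81.7 in H3.3Q5A. Six3os1 was above Six3 in 71 of 110 libraries, but per kb the long row stood at 0.670 of its host. The 3 libraries with high Ppp1r1b had 120 to 208 Six3os1 reads, and the other 107 had 0 to 219 with a median of 26.1.

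Raxos1 was at 0 in 77 of 110 libraries, and 3 libraries held 405 of its 590 reads (68.6%). These were H3.3 ZT12 cohort 2 replicate 2 with 171 reads, H3.3 ZT16 cohort 2 replicate 2 with 170 and H3.3Q5A ZT4 cohort 1 replicate 4 with 64. Rax, which marks tanycytes in the adult hypothalamus, never had more than 10 reads in a library. Col23a1, another listed tanycyte marker, had 22, 68 and 28 reads in these 3 libraries, in the order given, and Crym had 1, 2 and 6. Over all libraries the median of Col23a1 was 2.85 normalized reads. The part of tanycytes in the Raxos1 values was not tested. Six6os1 was likewise uneven, with 101 reads in H3.3 ZT4 cohort 2 replicate 1 and 63 in H3.3Q5A ZT4 cohort 1 replicate 1 against a mean of 9.08.

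**Figure D2:**
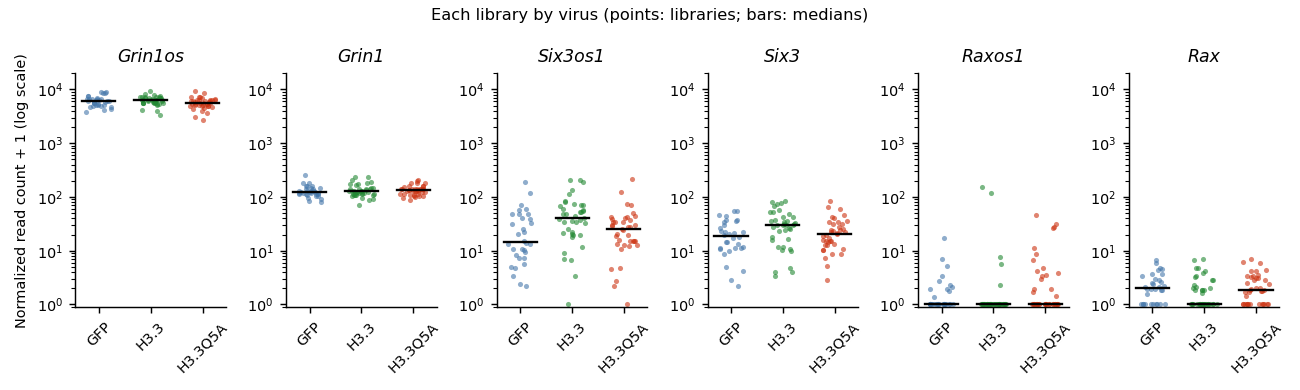
Normalized read count plus 1 (log scale) of Grin1os, Six3os1 and Raxos1, each beside its host, in the 32 GFP, 39 H3.3 and 39 H3.3Q5A libraries; points are libraries and bars medians. Grin1os stays between 2716 and 9202 in every library, whereas most Raxos1 points lie at 0 reads and 2 H3.3 libraries stand above 100.

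The first comparison asked whether expression of H3.3Q5A changed the level of these rows relative to the controls over all ZT. No member and no host passed edgeR's quasi-likelihood test at an adjusted p of 0.01: 0 of 127 members and 0 of 95 hosts tested, where 2 of 13891 rows (0.0144%) did. At an unadjusted p under 0.05 there were 6 members and 750 rows, and DESeq2 also called 0 rows, with 789 at an unadjusted p under 0.05. The members' log2 differences ran from −0.46 to 0.22 with a median of −0.07, against 0.00 over all rows tested. Of the members 27 (21.3%) had a value above 0, against 50.4% of all rows. The median stayed below 0 under each of the 13 other settings tried, between −0.11 and −0.04, and DESeq2 size factors gave −0.07 too. These are descriptions of a list whose rows share libraries.

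The member values at an unadjusted p under 0.05 were small. Ccdc142os was −0.23 ± 0.08 (SE) on the log2 scale with normalized counts of 63.5, 121 and 160 in GFP, 38.7, 108 and 172 in H3.3 and 51.4, 90.8 and 182 in H3.3Q5A. Myadml2os was −0.20, Zfp335os −0.24, Anxa11os −0.27 and Phtf1os 0.22, and Grin1os was −0.13 ± 0.06. All 6 had an edgeR adjusted p of 0.847, and the groups overlapped for Ccdc142os and Grin1os. Among hosts the lowest unadjusted p belonged to Zfhx2, at −0.38 ± 0.13. Grin1 was at 0.04.

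No member passed the test between the control viruses either. Between H3.3 and GFP, edgeR called 0 of 125 members, 0 of 94 hosts and 0 of 13264 rows (0%) at an adjusted p of 0.01. At an unadjusted p under 0.05 there were 7 members and 431 rows, and DESeq2 called 0 with 479 rows under that p. The members' median was −0.03 against 0.01 over all rows. The widest member difference was that of Six3os1, at 0.84 ± 0.31 (SE) higher in H3.3, with Six3 at 0.58 ± 0.23; both had an edgeR adjusted p of 1. Fgf2os was at −0.53, Gimap1os at −0.42 and Bach2os at −0.34.

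The balance of row and host by virus was compared as log2((row + 0.5)/(host + 0.5)). This was done for every pair of rows with exons on opposite strands, and for the members with their hosts whether or not their exons overlap. For H3.3Q5A against the controls limma called 2 of 1634 pairs (0.122%) at an adjusted p of 0.05, and 0 of 125 member pairs, of which 5 had an unadjusted p under 0.05. Phtf1os to Phtf1 was 0.24 ± 0.09 (SE) higher in H3.3Q5A, with an adjusted p of 0.762. Grin1os to Grin1 was −0.19 ± 0.10, with an adjusted p of 0.770. Within cohort 1 Phtf1os to Phtf1 was 0.36 ± 0.09 with a limma adjusted p of 0.0164. Phtf1os had normalized counts of 153, 401 and 657 in GFP, 126, 446 and 755 in H3.3 and 179, 507 and 760 in H3.3Q5A, so the groups overlapped.

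In the control libraries, most of the members called as rhythmic stood highest at 1 of 2 times. A group named after oligodendrocyte and other genes was highest at ZT0, at lights on, and another group at ZT8, late in the light phase. The JTK test, a rank test for periods of 8 to 24 h with an exact null, called 29 of 127 members (22.8%) and 17 of 95 hosts (17.9%) at an adjusted p of 0.05, against 16.8% of all 13891 rows. With Benjamini-Hochberg adjustment over all rows (q under 0.05) there were 6 members (4.72%) and 6 hosts against 3.02% of rows. By highest median, 13 of the 29 members stood at ZT0, 2 at ZT4, 12 at ZT8, 1 at ZT16 and 1 at ZT20. The same split was not counted over all rows called, so it is not known to be particular to the members.

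The 13 members highest at ZT0 were Bcas1os1, Bcas1os2, Galnt6os, Zeb2os, Frmd8os, Kcnab3os, Slfn5os, Efhd1os, Appbp2os, Rapgef4os2, Slain1os, Cdk19os and Arhgap27os1. Their highest median was 1.33 to 3.45 times the lowest. Bcas1os1 had control values (lowest, median, highest) of 1349, 1926 and 3849 at ZT0, 706, 1163 and 2812 at ZT4 and 626, 1117 and 3056 at ZT8. It then had 462, 828 and 3691 at ZT12, 621, 973 and 3526 at ZT16 and 713, 1453 and 3389 at ZT20. No control library at ZT0 was under 1349, while the other times each held libraries under 1000. Galnt6os, across an enzyme that starts O-glycosylation, had medians of 299.8, 200, 142, 117, 118 and 198 in the order of ZT0 to ZT20. Its ZT0 libraries spanned 227 to 505. Zeb2os, across a zinc finger homeobox repressor that acts in myelination, had a median of 120 at ZT0 (86.9 to 176) and 62.3 at ZT12 (23.3 to 120). The q was 0.0140 for Bcas1os2, 0.0297 for Galnt6os, 0.0327 for Bcas1os1 and 0.0388 for Zeb2os.

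The row of a myelin gene moved with this group. Mbp, myelin basic protein, had control medians of 1548, 806, 661, 677, 885 and 1370 in the same order, with a JTK adjusted p of 0.00124 and a q of 0.0448. Mog, myelin oligodendrocyte glycoprotein, had medians of 38.2 to 47.7 and an adjusted p of 0.110. Mbp and Mog were detected in every library. The part of oligodendrocyte RNA in the courses of the opposite-strand rows was not tested, and in bulk tissue more cells of a type and more RNA per cell cannot be told apart.

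The 12 members highest at ZT8 were Frs3os, Cyp4x1os, Rbm3os, Uckl1os, Atcayos, Ccdc142os, Plxna4os3, Tnk2os, Rsf1os2, Man2c1os, Ppp1r3fos and Ict1os, with a highest median 1.24 to 1.82 times the lowest. Frs3os, across an adaptor of fibroblast growth factor receptors, had control values of 190, 256 and 293 at ZT0, 221, 276 and 341 at ZT4 and 201, 315 and 400 at ZT8. It had 140, 237 and 310 at ZT12, 174, 239 and 289 at ZT16 and 108, 224 and 272 at ZT20. Its q was 0.00401, the lowest among members. Cyp4x1os, across a brain cytochrome P450, had medians of 53.1, 66.8, 67.1, 49.7, 37.0 and 45.9 from ZT0 to ZT20, with a q of 0.0114. All times overlapped in both rows. Rbm3os, across the cold-inducible RNA-binding protein Rbm3, had a median of 121 at ZT8 and 72.6 at ZT20 (q 0.0675). The remaining called members were Faddos and Usp46os2, highest at ZT4, Spag17os at ZT16 and Peak1os at ZT20.

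The calls were fewer in each control virus alone, with fewer libraries. JTK called 23 members in the GFP libraries, against 13.5% of all rows, and 8 in the H3.3 libraries, against 7.65% of all rows. With H3.3 libraries alone the adjusted p was 0.866 for Bcas1os1, 0.588 for Bcas1os2, 0.716 for Galnt6os, 0.125 for Zeb2os and 0.0750 for Cyp4x1os, and with GFP libraries alone it was 0.575 for Frs3os. The difference between these viruses was not tested for rhythm. An edgeR F test of ZT as a factor called 4 of 125 members in the controls, against 729 of 13264 rows. Within cohort 1 JTK called 26 members, against 14.8% of all rows.

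Of the 29 members called in the controls, 26 had a host that could be tested and 7 of these (26.9%) had the host called too. Among all 95 hosts tested, 17 (17.9%) were called. Whether row and host were called together more often than that was not tested. The pairs were Bcas1os1 and Bcas1os2 with Bcas1, Galnt6os with Galnt6, Zeb2os with Zeb2, Frmd8os with Frmd8, Arhgap27os1 with Arhgap27 and Man2c1os with Man2c1. These are 6 of the 17 hosts called. JTK's estimated peak was the same hour, ZT0, for row and host at Bcas1, Galnt6 and Zeb2. It was ZT0 for Arhgap27os1 and ZT6 for Arhgap27, ZT0 for Frmd8os and ZT18 for Frmd8, and ZT8 for Man2c1os and ZT0 for Man2c1. Each hour is counted within the period fitted to that row, between 8 and 24 h. This period can differ between row and host, so the hours are not daily peak times to be compared directly. The other hosts called were Ino80d, Fbxl12, Zbtb11, Nkx2-2, Notum, Zfhx2, Jun, Grin1, Ift88, Rptor and Acss2. Grin1 was highest at ZT16 with a median of 136 and lowest at ZT4 with 109.97 (adjusted p 0.0225, q 0.192).

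The balance of row and host over the day in the controls was called by limma in 3 of 124 member pairs (2.42%) at an adjusted p of 0.05, against 32 of 1628 pairs (1.97%). Kcnab3os lies inside Kcnab3, a regulatory subunit of voltage-gated potassium channels, and had the lowest adjusted p of the 3. Its log2 ratio to Kcnab3 was 4.27 ± 0.61 (SD, n = 9) at ZT0, 3.09 ± 0.73 (n = 11) at ZT4 and 2.55 ± 0.84 (n = 13) at ZT8. It was 2.78 ± 0.90 (n = 13) at ZT12, 3.24 ± 0.84 (n = 14) at ZT16 and 3.67 ± 0.46 (n = 11) at ZT20, with a limma adjusted p of 0.00553. The row itself went from a median of 314 at ZT0 to 90.9 at ZT12, while the medians of Kcnab3 stayed between 12.9 and 19.0. The ZT0 and ZT8 ratios differed by more than the spread within either time.

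Arhgap27os1, across a GTPase-activating protein, had log2 ratios to Arhgap27 of −0.85 ± 0.40, −1.16 ± 0.27, −1.60 ± 0.43, −1.10 ± 0.47, −0.75 ± 0.40 and −0.66 ± 0.71 (SD) from ZT0 to ZT20 in the same libraries, with a limma adjusted p of 0.0148. Ino80dos, across a subunit of the INO80 chromatin remodeller, had 5.54 ± 0.44, 5.22 ± 0.38, 5.02 ± 0.33, 5.09 ± 0.29, 5.19 ± 0.49 and 5.75 ± 0.61, with a limma adjusted p of 0.0437. Both ratios were lowest at ZT8 and highest at ZT20. All 3 calls were lost in some of the fits with libraries left out. Without replicate 3 of cohort 1 the adjusted p was 0.0749 for Kcnab3os, and without replicate 4 it was 0.0511. For Arhgap27os1 it was 0.0685 to 0.144 without replicates 1 to 4 each in turn, and for Ino80dos 0.177 within cohort 1.

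**Figure D3:**
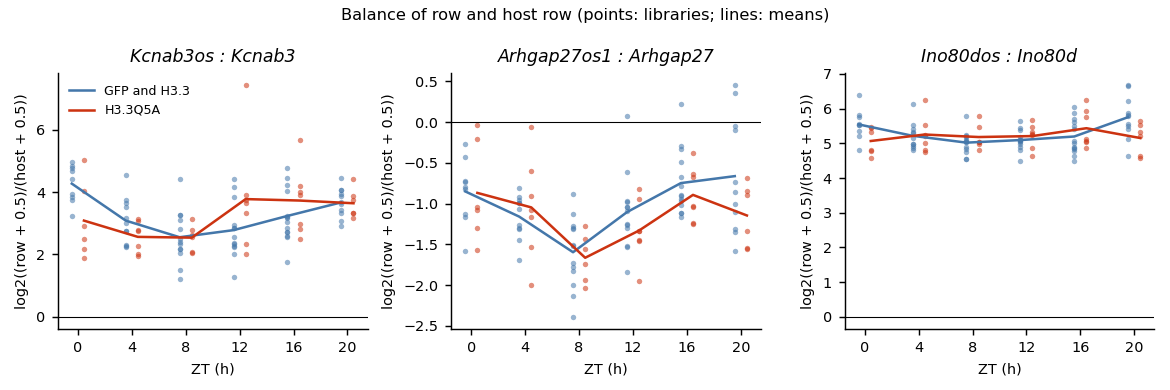
Log2 ratio of row to host, each with 0.5 added, by ZT (h) for Kcnab3os, Arhgap27os1 and Ino80dos; points are libraries, lines join the means of the controls (blue, n = 9 to 14 per ZT) and of H3.3Q5A (red, n = 6 or 7). In the controls the ratio of Kcnab3os falls from 4.27 at ZT0 to 2.55 at ZT8, and that of Arhgap27os1 is lowest at ZT8.

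In the H3.3Q5A libraries JTK called 6 of 127 members (4.72%) and 4 of 95 hosts (4.21%) at an adjusted p of 0.05, against 4.54% of 13891 rows. None of the members passed a q of 0.05, which 1 row (0.0072%) did. Within cohort 1 JTK called 18 members, against 8.92% of all rows. The 6 were Mccc1os, highest at ZT20 with a median of 71.3, Kcnab3os, highest at ZT16 with 244, Rapgef4os2, highest at ZT20 with 1573, Proscos at ZT20, Sap30bpos at ZT8 and Zfhx2os at ZT0. Mccc1os, across a subunit of methylcrotonyl-CoA carboxylase, had 62.0 to 81.0 at ZT20 and 26.9 to 55.8 at ZT4. These times did not overlap, in a row picked by its call in the same libraries. The hosts called were Tmem150c, Kdm6b, Cdk19 and Rapgef4. The controls hold more libraries (71 against 39), so the 2 counts of calls cannot be compared as strengths of rhythm.

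The difference in rhythm between H3.3Q5A and the controls was tested on its own, as the interaction of virus with a 24 h cosine curve. Over all libraries edgeR called 1 of 127 members and 0 of 95 hosts at an adjusted p of 0.05, against 17 of 13891 rows (0.122%). At an unadjusted p under 0.05 there were 24 members and 2007 rows. The member was Raxos1, with an edgeR adjusted p of 0.0147, whose reads come from few libraries as given above. Without its 2 highest libraries the adjusted p was 0.447, and DESeq2 gave 0.287.

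Within cohort 1 many more rows differed in rhythm between the viruses, and members stood among them. There edgeR called 19 of 125 members (15.2%) and 5 of 89 hosts (5.62%), against 777 of 12640 rows (6.15%). With all cohorts these 19 members had edgeR adjusted p of 0.234 to 0.493. In the controls of cohort 1, 14 of the 19 were highest at ZT0, 1 at ZT4, 2 at ZT8 and 2 at ZT12. In H3.3Q5A, ZT20 was highest for 9 of them, ZT16 for 4, and ZT12 and ZT0 for 3 each. The members were Kcnab3os, Bcas1os1, Bcas1os2, Efhd1os, Galnt6os, Frmd8os, Dhx58os, Zeb2os, Slain1os, Slfn5os, St8sia3os, Hopxos, Sorbs2os, Mccc1os, Tnfsf13os, Rapgef4os2, Sp3os, Arhgap20os and Cdk19os, in rising order of adjusted p from 5.4e-05 to 0.0465. The hosts were Zeb2, Bcas1, Galnt6, Ino80d and Nkx2-2, which directs oligodendrocyte differentiation. Their adjusted p were 1.19e-04, 3.24e-04, 0.0192, 0.0427 and 0.0458.

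The 3 libraries of high Ppp1r1b are all of cohort 1, and St8sia3os, Sorbs2os and Arhgap20os are among the rows in which they stood above every other library. Without these 3 libraries edgeR called 17 of 126 members in cohort 1, against 5.84% of 13042 rows, and 16 members were called in both fits. Sorbs2os, Sp3os and Arhgap20os were lost, with edgeR adjusted p of 0.139, 0.0771 and 0.243, and so was the host Ino80d, at 0.163. Prox2os was added at 0.0376. St8sia3os had 0.0264 and Kcnab3os 1.04e-05.

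Kcnab3os had the lowest adjusted p of the cohort 1 members in both fits, shared with other members in the second. In cohort 1 its controls (lowest, median, highest) were at 181, 274 and 611 at ZT0, 60.5, 127 and 312 at ZT4, and 40.6, 107 and 182 at ZT8. Later in the day they were at 51.4, 125 and 189 (ZT12), 29.6, 87.6 and 380 (ZT16) and 88.5, 199 and 589 (ZT20). In H3.3Q5A the row had 35.3, 72.6 and 127 at ZT0, 30.5, 56.7 and 137 at ZT4, and 56.2, 78.2 and 118 at ZT8. It then had 108, 173 and 278 (ZT12), 244, 310 and 421 (ZT16) and 152, 188 and 257 (ZT20). At ZT0 all 8 control libraries were above all 4 H3.3Q5A libraries, and from ZT12 on every H3.3Q5A library was above the H3.3Q5A median at ZT0. Over all cohorts the H3.3Q5A medians, from ZT0 to ZT20, were 103, 73.8, 78.8, 173, 244 and 188.

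Bcas1os1 was also highest at ZT0 in the controls of cohort 1. In H3.3Q5A it was highest at ZT20, and Kcnab3os at ZT16. The controls had medians of 1883, 1292, 1117, 871, 979 and 1670 from ZT0 to ZT20, and H3.3Q5A had 832, 705, 685, 1816, 1959 and 2045. At ZT0 the 8 control libraries spanned 1349 to 3517 and the 4 H3.3Q5A libraries 497 to 1129, without overlap. Galnt6os had control medians of 299, 201, 142, 126, 121 and 214 and H3.3Q5A medians of 143, 95.8, 90.9, 263, 237 and 256. Its ZT0 ranges were 227 to 443 and 71.5 to 159. Efhd1os, across a calcium-binding mitochondrial protein, had 290 to 710 in the controls and 154 to 262 in H3.3Q5A at ZT0. In all 3 rows the viruses did not overlap at ZT0, in 8 against 4 libraries of 1 cohort. These rows and Kcnab3os were picked because the test of the difference in rhythm called them in the same libraries. The lack of overlap therefore adds no support to those calls. How many of all rows lacked overlap at ZT0 was not counted.

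Mbp in cohort 1 was highest at ZT0 in the controls and at ZT16 in H3.3Q5A. It had control medians of 1477, 806, 716, 677, 683 and 1414 from ZT0 to ZT20 and H3.3Q5A medians of 450, 600.4, 642, 1472, 2108 and 1706, with an edgeR adjusted p of 5.4e-05 for the difference in rhythm. That of Mog was 0.565. With all cohorts the adjusted p was 0.306 for Mbp and 0.752 for Mog. The part of oligodendrocyte RNA in these courses of cohort 1 was not tested.

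**Figure D4:**
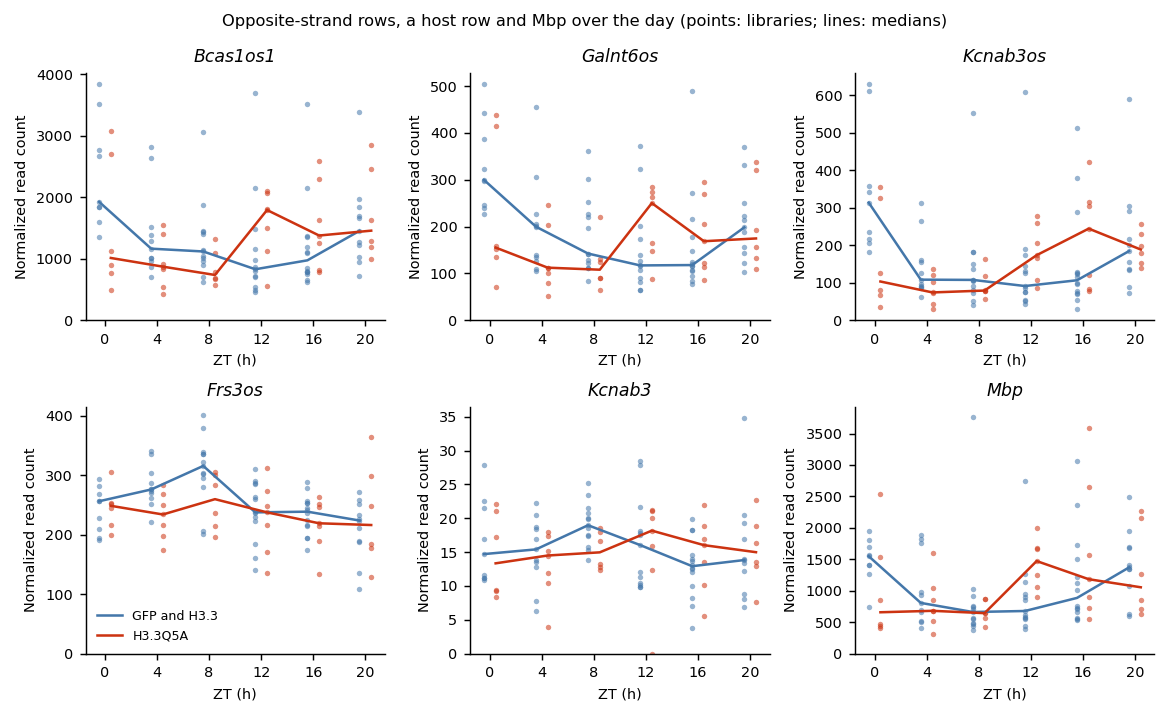
Normalized read count by ZT (h) of Bcas1os1, Galnt6os, Kcnab3os, Frs3os, the host Kcnab3 and the myelin gene Mbp in all cohorts; points are libraries, lines join the medians of the controls (blue, n = 9 to 14 per ZT) and of H3.3Q5A (red, n = 6 or 7). In the controls Kcnab3os falls from a median of 314 at ZT0 to 90.9 at ZT12 while the medians of Kcnab3 stay between 12.9 and 19.0, and that of Mbp falls from 1548 to 677 over the same hours.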

How the data were processed

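Tables of raw read counts per gene were deposited, 1 per library. Per the study's methods and labels, the authors demultiplexed the reads with bcl2fastq, aligned polyA RNA libraries (Illumina Stranded mRNA Prep, Ligation) to GRCm38 with STAR 2.7.11b and counted them by gene name in exons with HTSeq 2.0.5 (strand setting yes, union mode, minimum alignment quality 10, Ensembl v93). In the 111 virus libraries read here, the 5 tally lines of HTSeq (such as no feature) were left out of library sizes and tests. The libraries labelled H3.3Q5A ZT4 cohort 2 replicates 2 and 3 differed by 6 reads in 3 genes, less than the sampling noise, and were averaged and counted as 1 sample. The lowest chi-square per gene among all other pairs within a group was 1.87. A further 18 count tables of wild-type libraries without virus are tied to no sample in the records used and were used in no step, so the comparison with wild-type hosts is not analysed here.

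Counts were normalized by size factors (median of ratios, from 9428 rows). Exons, strands and coding bases came from GENCODE M21 (GRCm38), which held 28418 of 54087 rows with 64.7% of the reads, and gave 1888 pairs of rows with exons on opposite strands. Reads per kb are mean counts per kb of merged exon.

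Virus effects and the difference in rhythm were tested on counts with edgeR 4.0.16 (quasi-likelihood F test, TMM, filterByExpr with a minimum count of 10 and total of 15) in R 4.3.3. Virus contrasts had ZT as a factor and an adjusted p of 0.01, and the rhythm interaction an adjusted p of 0.05. Rhythm in 1 arm was tested with a reimplemented JTK_CYCLE (20 templates, periods of 8 to 24 h in steps of 4 h, exact null), p multiplied by the templates. Balance of pairs was tested with limma 3.58.1 on log2 ratios with a pseudocount of 0.5, for pairs with a mean summed count of 10 or more. Adjusted p from edgeR, limma and DESeq2 are Benjamini-Hochberg over every row or pair tested. The JTK adjusted p is corrected for the templates only, and its q is Benjamini-Hochberg over all rows. DESeq2 1.42.0 was an alternative. Scripts were tested on simulated data. All 127 members passed the count filter in the fit of all viruses, and 95 of 118 hosts did.

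The members, the lists of hosts and the tests were chosen with earlier results of these data known. Values by group are given for Grin1os, Six3os1 and Raxos1, for every member or host called in a test, for the 8 members with the highest mean count and for the 3 with the highest and the 3 with the lowest ratio to the host. Some items that this rule or the marker lists name are not reported here. Values also stand for members at an unadjusted p under 0.05 and for rows picked as examples after their values were seen. Per the study's methods 1 mouse gave 1 library, and p-values measure the spread between these libraries. Totals of 673306 to 3375352 reads leave rows of mean count near 5 at 0 in many libraries, and counting error is larger there. Alternatives are listed with their effect at the end.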

Additional observations from a re-analysis of the deposited data

Results flagged for a closer look

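Within groups of 4 to 8 libraries of 1 virus and ZT, a library is named here where its gap to the nearest of the others was above Dixon's 95% critical value for the range of its group; chance alone gives this in about 1 of 20 groups. For the share of gene reads in the opposite-strand rows this held in 5 of 18 groups. The libraries were GFP ZT20 cohort 1 replicate 1 at 3.29%, H3.3 ZT12 cohort 1 replicate 1 at 3.94% and H3.3Q5A ZT20 cohort 1 replicate 3 at 3.94%, all above the rest of their groups, and H3.3 ZT4 cohort 3 replicate 1 at 2.19% and H3.3Q5A ZT12 cohort 2 replicate 1 at 1.81%, both below. For Grin1os it held in 1 of 18 groups, with 8618 normalized reads in GFP ZT8 cohort 2 replicate 1, the next library being at 7020.

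For Six3os1 it held in 6 of 18 groups. In normalized reads, Six3os1 was at 120 in GFP ZT12 cohort 1 replicate 3, 190 in GFP ZT20 cohort 1 replicate 1, 208 in H3.3 ZT12 cohort 1 replicate 1, 114 in H3.3 ZT20 cohort 1 replicate 4 and 78.2 in H3.3 ZT8 cohort 2 replicate 1, each above its group. It was at 12.2 in GFP ZT4 cohort 1 replicate 2, below its group.

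For Raxos1 it held in 12 of 16 groups that had any read. The GFP libraries were ZT0 cohort 1 replicate 1 at 5.87 normalized reads, ZT8 cohort 1 replicate 1 at 0.959, ZT16 cohort 2 replicate 2 at 15.9 and ZT20 cohort 1 replicate 3 at 4.28. The H3.3 libraries were all cohort 2 replicate 2, at 4.70 for ZT8, 155 for ZT12, 116 for ZT16 and 1.35 for ZT20. The H3.3Q5A libraries were ZT8 cohort 1 replicate 4 at 2.34, ZT12 cohort 1 replicate 2 at 10.2, and cohort 2 replicate 2 at 30.9 for ZT16 and 26.5 for ZT20. In most of these groups every other library was at 0 reads. Such a group meets the criterion by construction, even with about 1 read in a library. The rate of 1 in 20 groups therefore does not apply to Raxos1, and its count of groups is no sign of an unusual library. Raxos1 also differed in rhythm between H3.3Q5A and the controls, with an edgeR adjusted p of 0.0147. Without the 2 highest libraries this was 0.447, a setting chosen after seeing the data.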

How the results depend on the processing

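The labels number the replicates within each cohort and group and do not say what a number stands for. Libraries with the same cohort and number had a median correlation of deviations of 0.0127 over 778 pairs (24.04% above 0.1). Over 4928 other pairs it was −0.00198 (21.2%), so libraries that share a number were scarcely more alike. These correlations cannot tell whether a number also stands for a shared step of processing. With the replicate block, edgeR called 0 members in the difference of rhythm (1 without it), where Raxos1 had an adjusted p of 0.212. The F test of ZT with the replicate block called 12 of 125 members in the controls, against 1070 of 13264 rows, and 0 of 123 in H3.3Q5A, against 1 of 11706 rows.

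For the other settings, the number of members called is given. In the difference of rhythm it was 0 by DESeq2, 19 within cohort 1, 17 within cohort 1 without the 3 libraries of high Ppp1r1b (a setting chosen after seeing the data), 0 without the 2 libraries of highest Raxos1, and 0 to 1 with 1 replicate of cohort 1 left out at a time. For rhythm in the controls it was 29, and 6 by q, 8 in H3.3 alone, 4 by the edgeR F test and 17 to 28 with a replicate left out. For rhythm in H3.3Q5A it was 6, and 0 by q, 1 by the edgeR F test, 18 within cohort 1 and 2 to 6 with a replicate left out. For the balance of pairs by virus it was 0, and 1 within cohort 1. For balance over ZT it was 3, and 0 to 2 with a replicate left out. The virus contrasts called 0 members under every setting run. H3.3 minus GFP has no value for leaving out an H3.3Q5A library.

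Over all rows the difference of rhythm was called in 17, and in 777 within cohort 1, 98 without the count filter, 10 by DESeq2, 6 with the replicate block and 4 without the 3 libraries of high Ppp1r1b. H3.3Q5A minus controls was called in 2 rows, and in 27 within cohort 1, 12 with cohort as a covariate, 8 with the replicate block, 6 without the filter, 0 by DESeq2 and 0 without the H3.3Q5A library of high pituitary rows (ZT16 cohort 1 replicate 3). H3.3 minus GFP was called in 0, and in 8 within cohort 1, 7 with cohort as a covariate and 3 without the filter. JTK called 2340 rows in the controls and 1063 in H3.3 alone, and 631 in H3.3Q5A and 1239 there within cohort 1. Balance by virus was called in 2 pairs, and in 16 within cohort 1, 6 with the block and 6 with cohort as a covariate. Balance over ZT was called in 32 pairs, and in 55 with cohort as a covariate, 59 with the block and 69 within cohort 1. With 1 replicate of cohort 1 left out, the all-row counts were 2 to 18 for the difference of rhythm, 0 to 3 and 0 to 1 for the virus contrasts, 0 for balance by virus, 3 to 18 for balance over ZT and 1465 to 2423 and 388 to 554 for JTK in the controls and H3.3Q5A. No value of a named row changed sign.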
